A study of Mus musculus with 6 samples.

Results

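The transcripts described here are 10 long noncoding RNAs of the mouse B16 melanoma line. They are *Gas5*, *Snhg1*, *Snhg3*, *Snhg5*, *Snhg6*, *Snhg8*, *Snhg12* and *Zfas1*, whose introns carry small nucleolar RNAs, and the nuclear RNAs *Neat1* and *Malat1*. They were chosen by gene symbol from the 20788 genes listed in at least 1 of 6 FPKM tables, and all 10 were listed in every table. FPKM is the fragment number scaled to transcript length and to the depth of the library, so levels of different genes can be set side by side per length.

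Both groups were subclones of B16, a line derived from a skin tumor of C57BL/6 mice, and were grown in low glucose DMEM with serum and antibiotics. Tyr-L cells have low tyrosinase activity and Tyr-H cells have high activity of this enzyme, which starts melanin synthesis from tyrosine. Each group had 3 RNA-seq libraries, and the comparison asks how the transcriptomes of the subclones differ. The sources used here do not say whether the 3 libraries came from separate cultures or clones, so the p-values measure only the spread between these libraries. All 10 melanocyte markers checked (among them *Tyr*, *Pmel* and *Mitf*) reached 1 FPKM in at least 1 library, and their summed level was 7583 to 7906 FPKM in Tyr-L, against 5646 to 6201 FPKM in Tyr-H. The sum rests mainly on *Tyrp1*, *Dct* and *Pmel*, and single markers differed in direction. *Tyr* was at 9.52 to 10.7 FPKM in Tyr-L, against 19.7 to 23.8 FPKM in Tyr-H, and *Mitf* at 86.6 to 98.2 FPKM, against 23.7 to 26.8 FPKM. Of 6 leukocyte markers, 5 were at 0 in every library. Fibroblast, endothelial and keratinocyte markers, each cell type summed on its own, stayed under 1 FPKM in all libraries. Depth is not given in counts, and the step between low values put it at roughly 19000000 to 21000000 fragments per library. Only depths within a preset range around these values were considered, so a depth outside that range could not have been found. In bulk RNA, a lower level in every cell and a loss from some of the cells cannot be told apart.

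Small nucleolar RNAs (snoRNAs) guide the methylation and pseudouridylation of ribosomal and spliceosomal RNA. In mammals most of them are cut out of introns after splicing of a host transcript. The spliced hosts of the Gas5 and Snhg type hold only short reading frames, many of them begin with the pyrimidine tract (5′ TOP) that is typical of ribosomal protein mRNAs, and several are degraded by nonsense-mediated decay while they are translated. *Neat1* is the scaffold of paraspeckles, nuclear bodies that hold back proteins and RNAs, and *Malat1* is an abundant RNA of nuclear speckles, where splicing factors are stored.

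In GENCODE M21 the 8 hosts held 32 snoRNA gene entries at 30 separate places, and each entry lay in an intron of at least 1 host transcript. *Gas5* held 9 places, *Snhg1* 8, *Snhg12* 4, *Zfas1* 3, *Snhg3* and *Snhg5* 2 each, and *Snhg6* and *Snhg8* 1 each, whereas *Neat1* and *Malat1* held none. The snoRNAs themselves were almost unmeasured, since only 9 of the 1558 annotated snoRNA and scaRNA genes were listed in any table. Of those inside the hosts, only *Snora73b* was listed, in 2 libraries and at no more than 0.444 FPKM. A host level therefore describes the spliced transcript and not the snoRNAs that it carries.

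**Figure D1:**
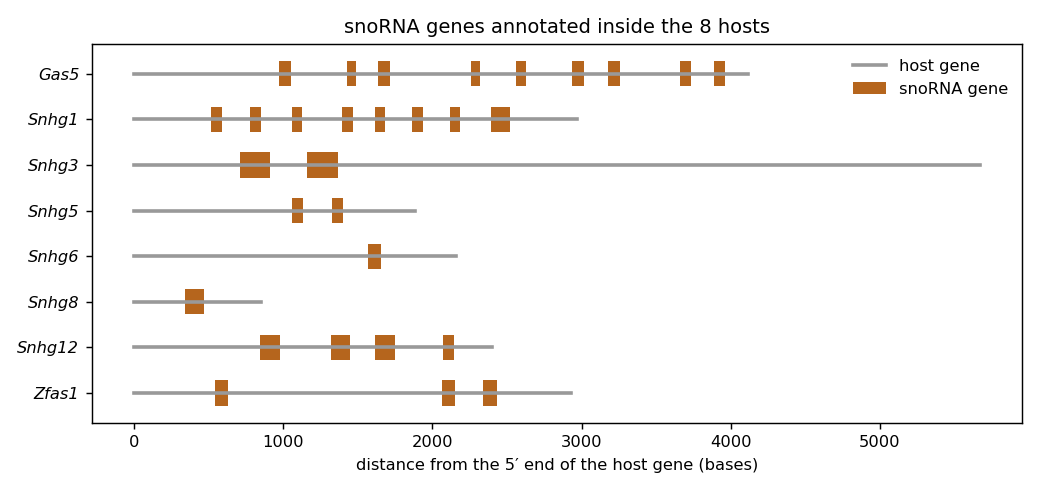
Position of the snoRNA genes (orange boxes, to scale) along the 8 host genes (grey lines), in bases from the 5′ end of each host. *Gas5* carries 9 places within 4118 bases, whereas *Snhg8* carries 1 within 853 bases.

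For each of the 6 hosts that were lower in Tyr-H cells at the adjusted p of the comparison, 1 of the snoRNAs is shown as an example of the cargo (GENCODE M21, GRCm38, 5′ to 3′ on the strand of the gene). Capitals mark the C box (TGATGA) and the D box (CTGA) in the C/D box snoRNAs *Snord47*, *Snord50a*, *Snord87* and *Snord12*, and the ACA box near the 3′ end of the H/ACA box snoRNAs *Snora73a* and *Snora24*.
*Snord47* in *Gas5* (chr1:161038082-161038158, plus strand): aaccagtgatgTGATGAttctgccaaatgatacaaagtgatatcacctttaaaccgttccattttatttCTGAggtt
*Snora73a* in *Snhg3* (chr4:132352775-132352979, minus strand): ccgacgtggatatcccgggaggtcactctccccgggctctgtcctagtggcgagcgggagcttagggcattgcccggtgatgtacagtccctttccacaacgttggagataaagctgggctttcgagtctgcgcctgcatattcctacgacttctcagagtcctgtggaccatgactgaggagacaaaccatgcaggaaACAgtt
*Snord50a* in *Snhg5* (chr9:88521529-88521600, minus strand): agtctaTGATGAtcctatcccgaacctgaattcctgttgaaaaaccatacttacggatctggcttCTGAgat
*Snord87* in *Snhg6* (chr1:9942463-9942549, minus strand): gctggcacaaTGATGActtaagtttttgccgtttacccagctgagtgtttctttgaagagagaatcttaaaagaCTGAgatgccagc
*Snora24* in *Snhg8* (chr3:123507937-123508066, minus strand): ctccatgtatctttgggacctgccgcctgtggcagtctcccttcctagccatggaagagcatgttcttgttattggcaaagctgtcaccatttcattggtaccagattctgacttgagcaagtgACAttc
*Snord12* in *Zfas1* (chr2:167065276-167065365, plus strand): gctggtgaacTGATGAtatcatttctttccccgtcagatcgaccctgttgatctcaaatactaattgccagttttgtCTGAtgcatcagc
The second snoRNA of *Snhg3*, *Snora73b*, was 96.6% identical to *Snora73a* and differed at 7 of 205 positions, which were G3A, G54A, A111G, T164C, G203A, T204A and T205A counted from the 5′ end of *Snora73a*. *Snord50b*, the second snoRNA of *Snhg5*, differed from *Snord50a* at 1 of 72 positions, C50A.

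The start sites are shown because the hosts are known for their 5′ TOP. RefSeq promoter windows (GRCm38.p6) existed for 8 of the 10 genes, with 2 windows for *Gas5*. Each line gives 40 bases before and 20 bases from the start. Capitals mark TATAAA or TATATA between 40 and 20 bases upstream and a C followed by 4 or more pyrimidines that begins within 5 bases of the start, both searched on the strand of the gene.
*Gas5* (chr1:161035126-161035185, plus strand): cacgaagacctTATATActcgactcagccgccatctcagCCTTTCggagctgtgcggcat
*Snhg12* (chr4:132308638-132308697, plus strand): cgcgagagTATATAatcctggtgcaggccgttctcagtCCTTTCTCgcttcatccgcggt
*Snhg8* (chr3:123508317-123508376, minus strand): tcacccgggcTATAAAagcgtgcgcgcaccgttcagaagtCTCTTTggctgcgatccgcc
*Snhg5* (chr9:88522878-88522937, minus strand): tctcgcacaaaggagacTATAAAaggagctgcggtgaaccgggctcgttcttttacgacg
Among all 32851 promoter windows, 2.74% had the TATA letters there, 16.1% had the pyrimidine run and 0.551% had both. *Gas5* (in 1 of its windows), *Snhg8* and *Snhg12* had both, *Snhg5* had the TATA letters alone, and *Snhg3* had the pyrimidine run alone. The *Snhg5* window also holds a C followed by 4 pyrimidines further downstream, beyond the 5 bases searched. The windows of *Snhg1*, *Zfas1* and *Malat1* had neither, and no window was given for *Snhg6* and *Neat1*. These windows cover 1 start each, and *Zfas1* has other annotated starts downstream. One of these starts lies 287 bases after the RefSeq start, outside the window, with a pyrimidine run (capitals).
*Zfas1* (chr2:167063221-167063240, plus strand): CCTTTCgttccggcggctcc
In *Snhg3* the RefSeq start lies upstream of a second annotated start. The first 73 bases of transcript Snhg3-204 hold TATAAA 31 bases before the first base of transcript Snhg3-203, whose own first bases are a pyrimidine run (both in capitals).
*Snhg3* (chr4:132353614-132353686, minus strand): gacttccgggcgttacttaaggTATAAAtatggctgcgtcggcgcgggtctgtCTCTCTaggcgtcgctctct

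The 10 transcripts covered a wide range of levels. In Tyr-L cells *Gas5* was the highest at 131.6 ± 10.2 FPKM (SD, n = 3), and 3.41% of the 14336 tested genes lay above it. *Snhg1* followed at 61.4 FPKM, and *Snhg6*, *Malat1* and *Zfas1* lay close together at 43.1, 41.6 and 41.4 FPKM, with overlapping libraries. *Neat1* at 18.7 FPKM overlapped with *Snhg5* at 15.7 FPKM, and *Snhg8*, *Snhg12* and *Snhg3* were the lowest at 13.9, 12.3 and 11.9 FPKM. In Tyr-H cells *Gas5*, *Snhg1* and *Snhg6* kept the first 3 positions at 116.2, 64.3 and 36.8 FPKM, without overlap between neighbours. *Neat1* moved from position 6 to position 9, at 4.12 FPKM, where its libraries overlapped with those of *Snhg3* at 3.61 FPKM.

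**Figure D2:**
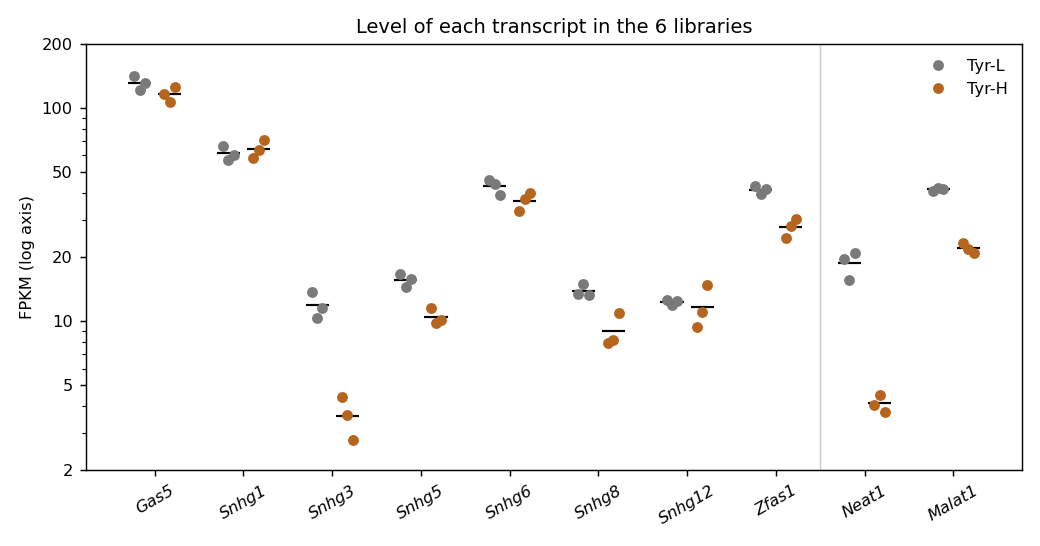
FPKM of each transcript (log axis) in the 3 Tyr-L libraries (grey) and the 3 Tyr-H libraries (orange), with black bars for group means. The groups are separate for *Snhg3*, *Snhg5*, *Snhg8*, *Zfas1*, *Neat1* and *Malat1* and overlap for *Gas5*, *Snhg1*, *Snhg6* and *Snhg12*.

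None of the 10 transcripts rose in Tyr-H cells past the threshold (an adjusted p up to 0.05), and 8 fell at that threshold. Only *Neat1* and *Snhg3* also passed a fold of 2 and are termed called. Across all tested genes 17.9% were higher in Tyr-H at the adjusted p and 2.96% were called higher. By the same rules 5.78% were called lower, 39.9% were lower at the adjusted p alone, and 43.8% had all Tyr-H libraries below all Tyr-L libraries, which held for 6 of the 10 transcripts. Log2 fold changes are on the scale of log2(FPKM + 0.1), Tyr-H against Tyr-L, from limma with Benjamini-Hochberg adjustment over all tested genes. Their median was -0.58 over the 10 transcripts, -0.40 over the 8 hosts and -0.15 over all tested genes. A median ratio scaling, which brings the median of all tested genes to -0.01, left 6 of the transcripts lower and *Snhg1* higher at the adjusted p, with a median of -0.43. The exact permutation test of 3 against 3 libraries cannot go below 0.1, which it gave for the 6 transcripts without overlap.

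**Figure D3:**
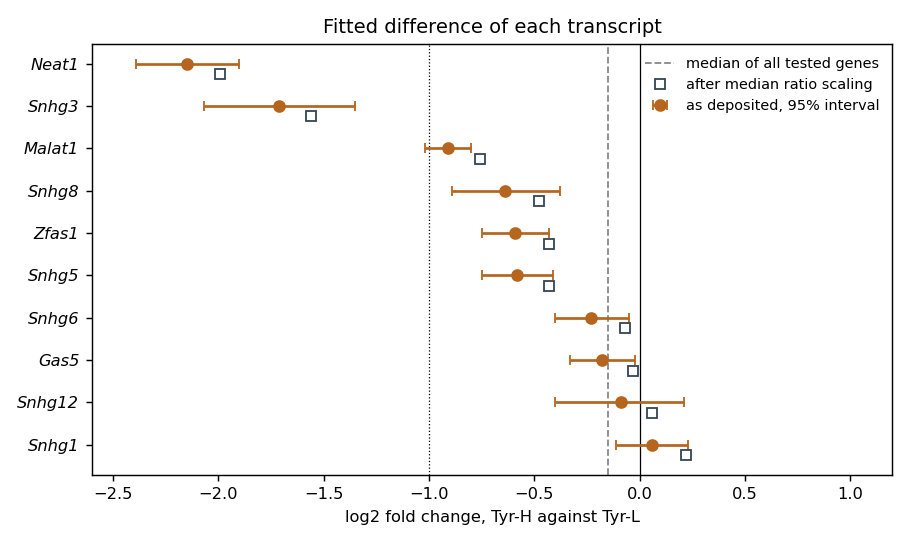
Log2 fold change of each transcript, Tyr-H against Tyr-L, as fitted (orange, bars for 95% intervals) and after median ratio scaling (open squares), with dotted and dashed lines at -1 and at the median of all tested genes. *Neat1* at -2.15 and *Snhg3* at -1.71 lie beyond -1, while the intervals of *Snhg12* and *Snhg1* span 0.

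*Snhg3*, which carries a pair of *Snora73* genes (also known as U17, snoRNAs that act in the cleavage of precursor ribosomal RNA), fell the most among the hosts. It lies on chromosome 4 (132348014 to 132353686, minus strand, GRCm38). Its level was 13.7, 10.4 and 11.6 FPKM in Tyr-L, against 4.43, 3.64 and 2.76 FPKM in Tyr-H. All Tyr-H libraries were below all Tyr-L libraries, and Tyr-H cells held 30.3% of the Tyr-L mean. The log2 fold change was -1.71 ± 0.16 (SE, adjusted p = 2.1e-05), and 0.914% of tested genes had a lower one. The annotated transcripts of *Snhg3* are only 332 to 581 nt long, so that at the estimated depth the Tyr-H values rest on roughly 17 to 49 fragments per library. It stayed called without each library in turn, with log2 fold changes of -1.87 to -1.53.

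*Snhg5*, *Snhg8* and *Zfas1* fell by similar amounts and passed the adjusted p without reaching a fold of 2. *Snhg5*, the host of *Snord50a* and *Snord50b* on chromosome 9 (88521050 to 88522929, minus strand), was at 16.7, 14.5 and 15.8 FPKM in Tyr-L and at 11.5, 9.85 and 10.1 FPKM in Tyr-H. Its log2 fold change was -0.58 ± 0.07 (SE, adjusted p = 0.00013), with no overlap between the groups. *Snhg8*, the host of *Snora24* on chromosome 3 (123507552 to 123508404, minus strand), was at 13.4, 15.0 and 13.3 FPKM in Tyr-L and at 7.87, 8.18 and 10.9 FPKM in Tyr-H. The third Tyr-H library lay above the other two but still below every Tyr-L library, and the log2 fold change was -0.64 ± 0.11 (SE, adjusted p = 0.001). *Zfas1*, which carries *Snord12* and 2 further snoRNA genes on chromosome 2 (167062934 to 167065862, plus strand), was at 43.1, 39.5 and 41.7 FPKM in Tyr-L and at 24.6, 28.0 and 30.2 FPKM in Tyr-H. The groups did not overlap, and the log2 fold change was -0.59 ± 0.07 (SE, adjusted p = 8.9e-05). The 3 hosts retained 64.6% to 66.7% of their Tyr-L means, and their adjusted p stayed at or below 0.012 in all 15 alternative settings.

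*Gas5*, *Snhg1*, *Snhg6* and *Snhg12* differed by small amounts. *Gas5*, named for its rise in growth-arrested cells, lies on chromosome 1 (161034422 to 161038539, plus strand). It was at 141.9, 121.5 and 131.2 FPKM in Tyr-L and at 116.3, 106.5 and 125.8 FPKM in Tyr-H, so the highest Tyr-H library was above the lowest Tyr-L library. The log2 fold change was -0.18 (95% interval -0.33 to -0.02, adjusted p = 0.048). This was lost after median ratio scaling (-0.03, adjusted p = 0.77) and without Tyr-L replicate 1, Tyr-L replicate 3, Tyr-H replicate 1 or Tyr-H replicate 2 (adjusted p = 0.17, 0.1, 0.088 and 0.17). *Gas5* made up 38.7% to 40.3% of the summed FPKM of the 8 hosts in Tyr-L libraries and 39.7% to 43.9% in Tyr-H libraries.

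*Snhg6*, the host of *Snord87*, also on chromosome 1 (9941959 to 9944118, minus strand), was at 45.9, 44.1 and 39.3 FPKM in Tyr-L and at 32.9, 37.3 and 40.2 FPKM in Tyr-H. The groups overlapped by the third libraries. Its log2 fold change of -0.23 (95% interval -0.40 to -0.05, adjusted p = 0.031) became -0.07 (adjusted p = 0.43) after median ratio scaling. Without Tyr-L replicate 1 or 2, or Tyr-H replicate 1 or 2, its adjusted p was 0.11, 0.088, 0.096 and 0.061.

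*Snhg1*, which carries 8 snoRNA genes including *Snord22* on chromosome 19 (8723475 to 8726443, plus strand), was the only transcript with a positive fitted difference. It was at 66.7, 57.4 and 60.3 FPKM in Tyr-L and at 58.2, 63.8 and 70.8 FPKM in Tyr-H. The groups overlapped, and the log2 fold change was 0.06 (95% interval -0.11 to 0.23, adjusted p = 0.49). After median ratio scaling it was 0.22 (adjusted p = 0.028). *Snhg12*, the host of *Snora44*, *Snora61* and *Snord99* among others on chromosome 4 (132308623 to 132311024, plus strand), was at 12.6, 11.9 and 12.4 FPKM in Tyr-L and at 9.36, 11.0 and 14.8 FPKM in Tyr-H. The Tyr-H libraries lay on both sides of the Tyr-L libraries. Its log2 fold change was -0.09 (95% interval -0.40 to 0.21, adjusted p = 0.58), and without Tyr-H replicate 3 it was -0.27 (adjusted p = 0.018). These intervals reach up to 1.16-fold in *Snhg12* and 1.17-fold in *Snhg1* of the Tyr-L level.

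*Neat1* fell the most of the 10 transcripts. It lies on chromosome 19 (5824708 to 5845478, minus strand), and its levels were 19.6, 15.6 and 20.9 FPKM in Tyr-L, against 4.07, 4.53 and 3.77 FPKM in Tyr-H. The groups were far apart, with a mean of 18.7 ± 2.74 FPKM (SD) against 4.12 ± 0.385 FPKM, or 4.53-fold less in Tyr-H. The log2 fold change was -2.15 ± 0.11 (SE, adjusted p = 8e-07), and only 44 of the 14336 tested genes (0.307%) had a lower one. Without each library in turn it ranged from -2.27 to -2.06.

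*Malat1*, 22035 bases away on the same strand of chromosome 19 (5795690 to 5802672), fell as well but less. Its levels were 40.7, 42.1 and 41.8 FPKM in Tyr-L, against 23.4, 21.9 and 21.0 FPKM in Tyr-H. The libraries within each group lay close together and the groups did not overlap, with 53.2% of the Tyr-L mean left in Tyr-H. The log2 fold change of -0.91 ± 0.05 (SE, adjusted p = 8e-07) was short of a fold of 2 as deposited and passed it at -1.01 when every library was rescaled to the same total. The ratio of *Neat1* to *Malat1* within a library was 0.480, 0.370 and 0.499 in Tyr-L, against 0.174, 0.207 and 0.180 in Tyr-H. The difference on the log2 scale was -1.26, with an exact permutation p = 0.1 (two-sided, the smallest possible) and 0.117 after adjustment over the 7 ratios tested.

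The 3′ ends of both RNAs are shown because they bear on what such libraries capture. *Malat1* and the long form of *Neat1* end in a genome-encoded A-rich tract that folds with U-rich stretches into a triple helix instead of a poly(A) tail, whereas the short form of *Neat1* is polyadenylated. In the first pair of sequences capitals mark a run of at least 5 A, then GC and at least 4 A. They also mark stretches of at least 4 T on both sides of 1 or 2 G or C there. In the last sequence they mark the polyadenylation signal AATAAA (GENCODE M21, GRCm38). The marks follow letters alone, so they may include stretches outside the helix and miss stretches within it.
*Malat1* (chr19:5795977-5796081, minus strand): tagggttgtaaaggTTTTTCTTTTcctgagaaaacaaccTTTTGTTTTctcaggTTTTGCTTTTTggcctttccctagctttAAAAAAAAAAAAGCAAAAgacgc
*Neat1*, long form (chr19:5824708-5824807, minus strand): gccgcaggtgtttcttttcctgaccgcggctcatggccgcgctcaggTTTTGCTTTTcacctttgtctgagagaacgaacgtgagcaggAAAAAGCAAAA
*Neat1*, short form (chr19:5842307-5842366, minus strand): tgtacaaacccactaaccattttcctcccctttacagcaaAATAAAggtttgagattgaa
The annotated Malat1-201 runs on for 292 bases after the A-rich tract, and Neat1-201 (20771 nt) ends at it. The annotated short form has 3004 nt. The tables give 1 value per gene, so the short and long forms of *Neat1* cannot be told apart, and the sources used here name the library kit as one for mRNA without saying how mRNA was enriched.

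Several of the transcripts share their locus with another gene, and the sources used here do not say whether strand was used in quantification, so values of overlapping genes are uncertain. *Snhg3* overlaps *Rcc1* on the same strand, and their annotated starts lie 81 bases apart. *Rcc1*, the nuclear exchange factor for the GTPase Ran, was at 32.5, 35.6 and 33.9 FPKM in Tyr-L and at 29.0, 28.2 and 26.6 FPKM in Tyr-H, a log2 fold change of -0.28 ± 0.05 (SE, adjusted p = 0.00091). The ratio of *Snhg3* to *Rcc1* was 0.352 ± 0.0662 (SD) in Tyr-L and 0.128 ± 0.0244 in Tyr-H, without overlap between the groups. *Gm17300*, a lincRNA on the opposite strand of *Snhg3*, was at 2.03, 2.14 and 2.25 FPKM in Tyr-L and at 0.518, 0.695 and 0.372 FPKM in Tyr-H and was called lower (log2 fold change -1.86 ± 0.20 SE, adjusted p = 4.6e-05). The ratio of *Snhg3* to *Gm17300* was 5.59 ± 1.03 in Tyr-L and 7.07 ± 1.69 in Tyr-H and overlapped between the groups (exact permutation p = 0.2, two-sided). *Snhg12* lies 36989 bases from *Snhg3* on the other strand, and the ratio of *Snhg3* to *Snhg12* was 0.967 ± 0.112 in Tyr-L, against 0.330 ± 0.143 in Tyr-H.

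The start of *Snhg1* lies 106 bases from that of *Slc3a2*, which is read in the other direction and encodes the heavy chain of amino acid transporters at the cell surface. *Slc3a2* was at 76.0, 86.4 and 79.1 FPKM in Tyr-L and at 185.1, 205.7 and 225.2 FPKM in Tyr-H, and was called higher (log2 fold change 1.35 ± 0.07 SE, adjusted p = 8.9e-07). The ratio of *Snhg1* to *Slc3a2* was 0.768 ± 0.107 (SD) in Tyr-L and 0.313 ± 0.00235 in Tyr-H. *Gas5* overlaps *Zbtb37*, a zinc finger gene on the other strand that fell from 3.95 to 2.22 FPKM (log2 fold change -0.81 ± 0.13 SE, adjusted p = 0.00053), and the ratio of *Gas5* to it was 33.3 in Tyr-L cells and 53.7 in Tyr-H cells. *Zfas1* overlaps the 5′ end of *Znfx1*, a helicase gene on the other strand whose level was 7.03 ± 0.397 FPKM (SD) in Tyr-L, against 6.43 ± 0.295 FPKM in Tyr-H (adjusted p = 0.15). The ratio of *Zfas1* to *Znfx1* was 5.91 in Tyr-L cells and 4.30 in Tyr-H cells. Each of the 6 ratios whose groups did not overlap had an exact permutation p = 0.1 (two-sided), or 0.117 adjusted over the 7 ratios. *Mcmdc2* beside *Snhg6* and *Frmd8os* beside *Neat1* were below 0.22 FPKM in every library.

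**Figure D4:**
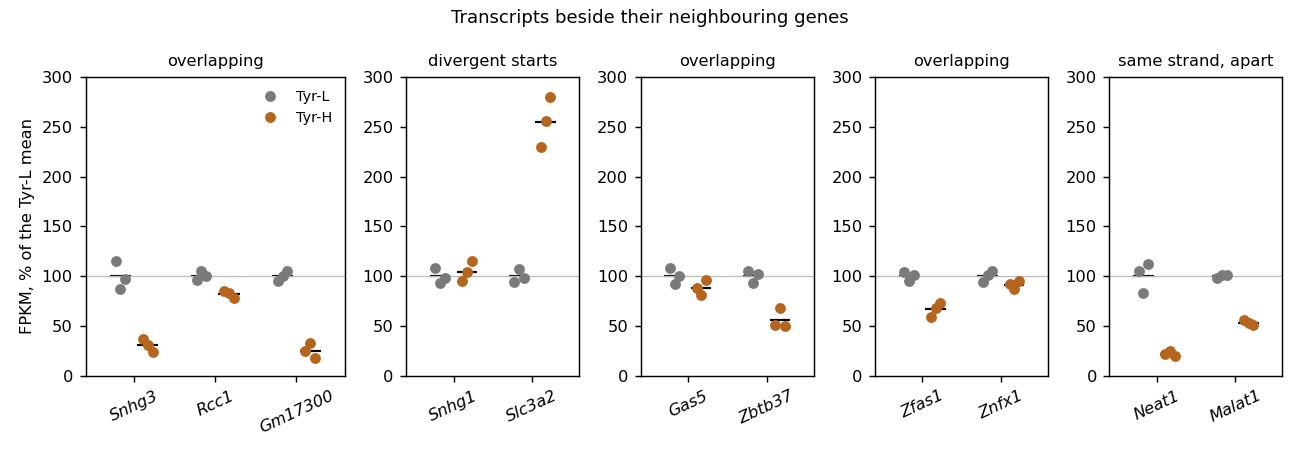
FPKM of *Snhg3*, *Snhg1*, *Gas5*, *Zfas1* and *Neat1* and of the genes beside them, as a percentage of each gene's Tyr-L mean (points, libraries; bars, group means). *Slc3a2* is the only gene shown that rose at the adjusted p, to 255.0% of its Tyr-L mean, while *Snhg3* and *Gm17300* both lay at 30.3% or below on average.

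Further hosts and nuclear RNAs were read from lists. Of 15 further snoRNA host lncRNAs 8 were tested, none rose and 6 fell at the adjusted p, with a median log2 fold change of -0.63. *Snhg20* was called, with 13.3, 13.7 and 10.9 FPKM in Tyr-L, against 4.29, 3.41 and 3.68 FPKM in Tyr-H (log2 fold change -1.71 ± 0.11 SE, adjusted p = 2.4e-06). *Snhg4*, *Snhg17* and *Snhg16*, named after their values were seen, fell by 0.99, 0.69 and 0.57 on the log2 scale. So did an entry of *Dancr*, from 3.06 to 1.54 FPKM (log2 fold change -0.93, adjusted p = 0.0021), which was not called. The 1 call of this list became 2 with a pseudocount of 0.01 FPKM and without Tyr-L replicate 2, Tyr-L replicate 3 or Tyr-H replicate 3. It became 3 after rescaling to equal totals. With the 10 transcripts left out, the annotation types 23 tested genes with a snoRNA gene inside as lncRNA. Of these 13 fell and 1 rose at the adjusted p. The 23 include *Snhg15*, *Snhg16*, *Snhg17* and *Snhg20* of the list above, so the 2 lists are not independent. The 13 include *Cct6a*, which encodes a chaperonin subunit (184.9 FPKM in Tyr-L, 169.0 FPKM in Tyr-H). The 1 that rose was *2410006H16Rik*, from 81.1 to 120.9 FPKM (log2 fold change 0.57). Called lower were *Snhg20*, *Rab26os*, *AA465934*, *Gm29170*, another entry of *Dancr*, *2700038G22Rik* and *2900076A07Rik*. Only *Snhg20* among them had a mean above 4 FPKM in Tyr-L, and that entry of *Dancr* was at 0.923 FPKM. With a pseudocount of 1 FPKM 2 of these 7 calls were left (*Snhg20* and *Rab26os*), and *AA465934* also lost its call without Tyr-L replicate 1 or Tyr-H replicate 2, *2700038G22Rik* without Tyr-H replicate 3, and *2900076A07Rik* without Tyr-L replicate 3 or Tyr-H replicate 1. The 7 became 6 after median ratio scaling, without *2900076A07Rik*, and 5 after quantile normalization, without *2700038G22Rik* as well.

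Of 19 other nuclear and regulatory lncRNAs 10 were tested, with 6 lower and 1 higher. *Firre*, which anchors nuclear chromatin domains, was called lower at 9.64 FPKM in Tyr-L, against 2.59 FPKM in Tyr-H (log2 fold change -1.85), and so was *Airn*, the antisense RNA of the imprinted *Igf2r* locus (-1.04). The call of *Airn* was lost after median ratio scaling (-0.90), after quantile normalization (-0.86), with a pseudocount of 1 FPKM, and without Tyr-L replicate 1 or Tyr-H replicate 1. *Tug1* (-0.72), *Norad* (-0.76), *Oip5os1* (-0.49) and *Mir17hg* (-0.99) fell at the adjusted p without a fold of 2 and are named after their values were seen. Over the alternative settings *Mir17hg* ranged from -1.11 to -0.73. The 2 calls of this list became 3 with a pseudocount of 0.01 FPKM, after rescaling to equal totals and without Tyr-L replicate 2. *Pvt1*, a neighbour of *Myc*, rose from 6.73 to 9.39 FPKM (log2 fold change 0.49, adjusted p = 0.012), which missed the threshold in limma without a variance trend (adjusted p = 0.051). By the gene types of the annotation, 18.1% of the 1049 tested lncRNA genes other than the 10 were called lower in Tyr-H. The share was 4.25% of 12086 protein-coding genes, and the median log2 fold changes were -0.44 and -0.14. At the adjusted p alone the order was the other way, with 32.3% of the lncRNA genes and 42.3% of the protein-coding genes lower. Among the 27 lncRNA genes that averaged 10 FPKM or more, 17 (63.0%) were lower at the adjusted p, 4 (14.8%) were higher and 3 (11.1%) were called lower. Of the 6098 protein-coding genes at that level 47.6% were lower, 23.5% were higher and 1.48% were called lower, and the differences between these shares were not tested.

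Of the protein-coding genes that hold a snoRNA gene, 114 were lower and 62 higher of 230 tested, with a median log2 fold change of -0.15, equal to that of all tested genes. The lower ones numbered 71 after median ratio scaling, and the higher ones 41 after rescaling to equal totals. None was called higher and 11 were called lower, against 2.96% and 5.78% of all tested genes. The share called lower was thus no larger than over all genes. These counts became 1 (*Hspa9*) and 7 after median ratio scaling, and 0 and 6 after quantile normalization or with a pseudocount of 1 FPKM. The 11 were *Taf1d*, a host of many snoRNAs, at -1.06, *Ccar1* at -1.36, *Khdc4*, *Prpf39*, *Etl4*, *Pcdhgb1*, *Nup210l*, *Zfp935*, *Zfp934*, *Zfp808* and *Gm20661*. *Taf1d*, *Khdc4*, *Zfp935* and *Zfp934* lost their calls under both of these scalings, with -0.91, -0.95, -0.96 and -0.93 after median ratio scaling. *Nup210l* lost its call after quantile normalization, *Taf1d* and *Zfp934* did so without Tyr-H replicate 3, and *Zfp935* without Tyr-H replicate 1. The largest rise was in *Hspa9*, the mitochondrial HSP70, from 284.2 to 512.8 FPKM.

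As deposited, the listed proteins that act on these RNAs included 1 called gene, *Upf3b*. Of 17 snoRNP core and assembly proteins, 8 were lower and 3 higher at the adjusted p, with *Nop58*, a core C/D box protein, at -0.52 and *Pih1d1*, an assembly factor, at 0.36. Their median log2 fold change was -0.18, against -0.15 over all tested genes, of which 39.9% were lower and 17.9% higher. The 3 higher became 1 without Tyr-L replicate 2, Tyr-L replicate 3 or Tyr-H replicate 3, and also with the replicate block, after rescaling to equal totals and without a variance trend. Of 20 nonsense-mediated decay factors, 13 were lower and 3 higher, with 0 higher after rescaling to equal totals and 5 after quantile normalization. *Upf3b*, which links the exon junction complex to decay, was called lower with 14.3, 11.4 and 13.3 FPKM in Tyr-L, against 5.39, 5.61 and 4.59 FPKM in Tyr-H (log2 fold change -1.31 ± 0.10 SE, adjusted p = 6.7e-06), and *Nbas* had the largest rise at 0.23 (adjusted p = 0.052 after rescaling to equal totals). Of 13 paraspeckle proteins 12 were lower, none was higher, and the median log2 fold change was -0.47, with *Hnrnph3* at -0.98. *Hnrnph3* was called lower after rescaling to equal totals and without Tyr-L replicate 2 or Tyr-H replicate 2. Of 16 genes in the nuclear speckle and SR protein list 14 were lower and 1, *Elac2*, was higher. *Elac2* trims the 3′ ends of tRNAs and of *Malat1* byproducts and is not itself a speckle or SR protein. *Mettl16*, named after its values were seen, is not one either and missed the threshold (-0.02, adjusted p = 0.67). The splicing factor *Srsf5* had the largest fall in that list, at -0.92 (-1.01 and called after rescaling to equal totals), and after median ratio scaling 12 of the paraspeckle and 12 of the speckle genes were still lower.

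A further list held 6 stress mRNAs known to be limited by nonsense-mediated decay, of which 5 rose and 4 were called higher. Across all tested genes 17.9% rose at the adjusted p and 2.96% were called higher. The number called from the list stayed at 4 in all 15 alternative settings. Stress mRNAs can also rise by transcription, and whether decay or transcription lay behind these rises was not tested. *Atf4*, the transcription factor of the integrated stress response, went from 132.3 to 311.5 FPKM (log2 fold change 1.24 ± 0.07 SE, adjusted p = 9.6e-07). *Atf3* rose 6.42-fold, *Ddit3* 4.73-fold and *Gadd45a* 8.43-fold, whereas *Gadd45b* was at 4.07 and 3.78 FPKM (adjusted p = 0.60).

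Protein-coding mRNAs with a 5′ TOP were read in the same way. Of 17 translation mRNAs with a 5′ TOP start 13 were higher and 2 were lower at the adjusted p, with a median of 0.33. *Rack1*, a ribosomal scaffold protein, had the largest rise (0.49) and *Npm1*, a nucleolar protein, the largest fall (-0.18, and -0.02 after median ratio scaling). The 2 lower became 1 without Tyr-L replicate 1, Tyr-L replicate 3, Tyr-H replicate 1 or Tyr-H replicate 2, and also with the replicate block, without a variance trend and without a filter on low values. They became 0 after median ratio scaling and 4 after rescaling to equal totals. Of 76 cytosolic ribosomal protein genes 51 were higher and 1 was lower, with a median of 0.20. *Rps14* was the highest at 0.51 and *Rps21* the lowest at -0.30 (adjusted p = 0.063). The number of ribosomal protein genes that were higher depended on the scaling, with 65 after median ratio scaling, 32 after rescaling to equal totals and 26 after quantile normalization. The 1 lower became 6 after rescaling to equal totals, 8 after quantile normalization, 2 without Tyr-L replicate 3 and 5 without Tyr-H replicate 3. Mitochondrially encoded genes held 8.89% to 9.43% of the FPKM in Tyr-L libraries and 13.2% to 13.8% in Tyr-H libraries, and what this does to the levels of the other genes was not tested.

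**Figure D5:**
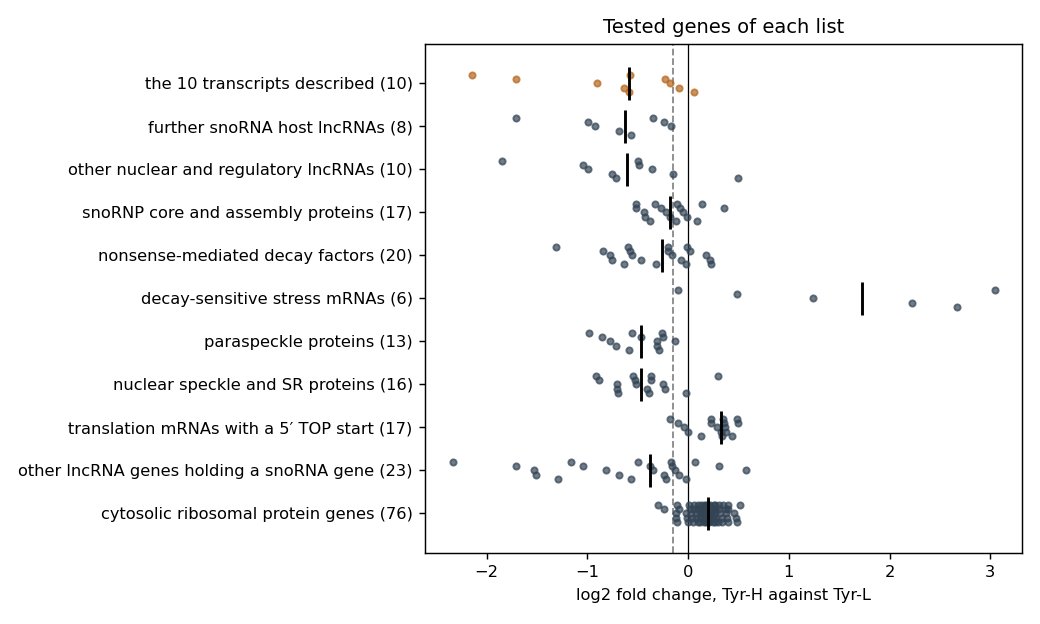
Log2 fold changes, Tyr-H against Tyr-L, of the tested genes of each list (points; number of genes in brackets; black bars, medians), with a dashed line at the median of all tested genes. The 10 transcripts and the further host, nuclear lncRNA, paraspeckle and speckle lists have medians of -0.63 to -0.46, whereas the 5′ TOP mRNAs and the stress mRNAs have medians of 0.33 and 1.73.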

How the data were processed

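RNA of Tyr-L and Tyr-H B16 cells was sequenced in 3 libraries per group (paired 150 bp reads). The authors deposited per library a table of FPKM values, that is, values scaled to transcript length and to depth. The submitters' processing notes name Trimmomatic, HISAT, HISAT2 and GRCm38.p6, and the quantifier and annotation are not given in the sources used here. Genes not listed in a table were taken as 0. Of 20788 genes listed at least once, 14336 with a mean of at least 0.1 FPKM were tested on log2(FPKM + 0.1) with limma 3.58.1 in R 4.3.3 (eBayes, variance trend on, p-values adjusted by Benjamini and Hochberg across the tested genes). Calls needed an adjusted p up to 0.05 together with a fold of 2 or more. The step was tested on simulated data with 14223 genes, where 177 of 194 changed and tested genes (91.2%) were recovered and 1 other was called. Ratios within libraries used exact permutation tests in scipy. Positions, types and overlaps came from GENCODE M21, in which 20709 identifiers were found.

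The 10 members, the lists and the tests were chosen with earlier results of these data known. Named are the 10 members, genes called in a list and its largest rise and fall at a mean of at least 1 FPKM, protein-coding or lncRNA genes that overlap a member or start within 2000 bp of it on the other strand, and listed snoRNA genes inside a member. Members and lists were compared with all tested genes by counts and medians only. Alternatives covered the pseudocount (0.01 and 1 FPKM), the filter, 3 scalings, the replicate number as a block, eBayes without a trend, and each library left out.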

Additional observations from a re-analysis of the deposited data

How the results depend on the processing

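*Neat1* and *Snhg3* stayed called in all 15 alternative settings, and *Malat1*, *Zfas1*, *Snhg8* and *Snhg5* stayed lower at the adjusted p. The adjusted p of *Gas5* passed 0.05 in 6 of 15 settings and ranged from 0.0032 to 0.77, and that of *Snhg6* passed in 6 of 15 and ranged from 0.0022 to 0.43. Of the 150 member values, 144 kept their direction and their call or lack of one (adjusted p together with a fold of 2), 1 gained a call (*Malat1*, -1.01 after rescaling to a total of 1000000 FPKM) and 5 changed sign. *Snhg1* became -0.03 after that rescaling, and *Snhg12* became 0.06 with median ratio scaling and 0.06 with quantile normalization. Without each library in turn, *Snhg1* ranged from -0.01 to 0.13 and *Snhg12* from -0.27 to 0.05. All these sign changes lay within 1 SE of 0. Median ratio scaling put 1 member higher at the adjusted p. The same rescaling to equal totals called 3 members lower.

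All tested genes gave 425 calls higher and 829 lower (33.9% higher). A pseudocount of 1 FPKM gave 185 and 203 (47.7%), and a mean of at least 1 FPKM gave 247 and 393. Rescaled totals gave 457 and 1287 (26.2%), median ratio scaling 544 and 580 (48.4%), and quantile normalization 611 and 494 (55.3%). Of 330 list counts, 28 moved by more than 1.5 times. Same-numbered libraries did not deviate together (correlations 0.02, 0.01 and -0.08), so the numbers do not pair them. With a replicate block, 430 genes were called higher and 828 lower, 7 members were lower at the adjusted p, and *Snhg6* was not (adjusted p = 0.059). The causes of these changes were not tested. Depth limits *Snhg3* the most, with roughly 17 fragments in its lowest Tyr-H library if the estimated depth holds.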
